A study of Homo sapiens with 6 samples.

Results

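The 10 genes described here build microRNAs (miRNAs) or hold them: DROSHA and DGCR8, which cut the primary transcript in the nucleus, XPO5, which exports the cut hairpin, DICER1 with its partners TARBP2 and PRKRA, and the Argonautes AGO1, AGO2, AGO3 and AGO4. They were chosen by gene symbol, and every probe annotated to one of them was taken. That gave 16 of the 47231 probes on the array and 10 of its 20046 named genes. A probe was taken as measured where its detection value, which nears 1 for a probe brighter than the negative controls, was above 0.99 on all 3 arrays of at least 1 cell line. By that rule 13 of the 16 probes and 9 of the 10 genes were measured, out of 19384 probes and 11515 genes in all, and AGO4 was the gene left without a measured probe.

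Total RNA came from cultured JJ012, a human chondrosarcoma cell line, and from cultured C28, a human chondrocyte line that the labels call the control, with 3 arrays of each. Both lines were seeded at 5000000 cells a dish and kept for 24 h before lysis, with no drug or genetic change named. Each group is a single cell line, and no label says whether its 3 arrays were grown apart, so the error behind each p-value is that among arrays and could be technical. The study set out to relate miRNAs that differ between the lines to their target mRNAs in the NOTCH and IGF receptor pathways. Its miRNA arrays were not used here.

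A miRNA gene is first copied into a long transcript with a hairpin, and the nuclease DROSHA, held by the RNA-binding protein DGCR8, cuts the hairpin free. Exportin-5, the product of XPO5, carries it to the cytoplasm with the small GTPase RAN, where DICER1 trims it to a short duplex with the help of TARBP2 or PRKRA. An Argonaute protein keeps a single strand and is guided by its seed to mRNAs, which are then silenced or, by AGO2 with extensive pairing, sliced. In mice, cartilage without Dicer grows poorly.

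On the JJ012 arrays 17826 to 18378 probes were detected, against 18922 to 19332 on the C28 arrays, and normalized log2 signals correlated across probes at 0.986 to 0.992 within JJ012, 0.994 to 0.996 within C28 and 0.891 to 0.907 between the lines. JJ012 array 1 stood apart from JJ012 array 3 in a particular respect. Over 13 probes that were bright in C28 and undetected on JJ012 array 2, it read a median of 8.49% of the C28 level, against 1.99% on JJ012 array 3, so results are also given without it. All 13 were detected on both of these arrays, and JJ012 array 2 is low here by the choice of probes. The weights that limma gave JJ012 arrays 1, 2 and 3 were 0.43, 0.44 and 2.97, so array 2 was weighted about as low as array 1. Of 16 chondrocyte markers only SOX9 and MATN3 were measured. SOX9 fell by 0.53 on the log2 scale in JJ012, MATN3 was undetected on all JJ012 arrays, and defining markers such as ACAN and COL2A1 were measured in neither line, so the chondrocyte label of C28 rests on few of its markers. The summed linear level of the measured markers was 259 to 350.6 in JJ012 and 513.2 to 596 in C28. Markers of other cell types moved with the lines too: of 8 measured fibroblast markers of 9, 4 were higher and 4 lower (summed level 11879.5 to 13701.1 in JJ012 and 4040.1 to 4295.3 in C28), and of 4 measured epithelial markers of 6, 1 was higher and 2 lower (307 to 432.5 in JJ012 and 1224.5 to 1367.6 in C28). The 1 measured of 6 blood markers was lower (72.2 to 133.2 in JJ012 and 562.4 to 728.6 in C28), and the 1 measured of 5 endothelial markers, undetected in C28, was higher (53.2 to 93 in JJ012 and 23.6 to 26.1 in C28). In JJ012 the fibroblast sum came mostly from S100A4, at a mean log2 signal of 13.27 in JJ012 against 8.89 in C28. The 4 lower fibroblast markers were COL1A1, COL1A2, COL3A1 and THY1, so the sum does not describe the list as a whole. DCN, FAP, LUM, COL3A1, THY1, KRT8, EPCAM and CLDN7 were undetected on some or all arrays of the line where they are low. Like MATN3 and the endothelial marker, they passed the filter solely through the line where they are high. Their calls are no support for a difference. Of all measured genes 34.1% were higher and 37.8% lower at an adjusted p under 0.05 (limma). The part of all these markers in the results below was not tested.

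DROSHA, XPO5, AGO2 and AGO3 rose, with log2 fold changes of 0.47 to 0.72, and no member fell. Thus 4 of 9 measured genes were higher at an adjusted p under 0.05 by limma with Benjamini-Hochberg adjustment over all probes, beside 34.1% of all measured genes, and 0 of 9 were lower, beside 37.8%. DGCR8, DICER1, TARBP2, PRKRA and AGO1 did not pass the test. None of the 9 reached a 2-fold change, which 31.2% of all genes did at the same adjusted p. The median log2 fold change was 0.09 for the 9 members and −0.04 for all genes. With 9 genes, these shares describe the members and single out nothing about them as a group.

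**Figure D1:**
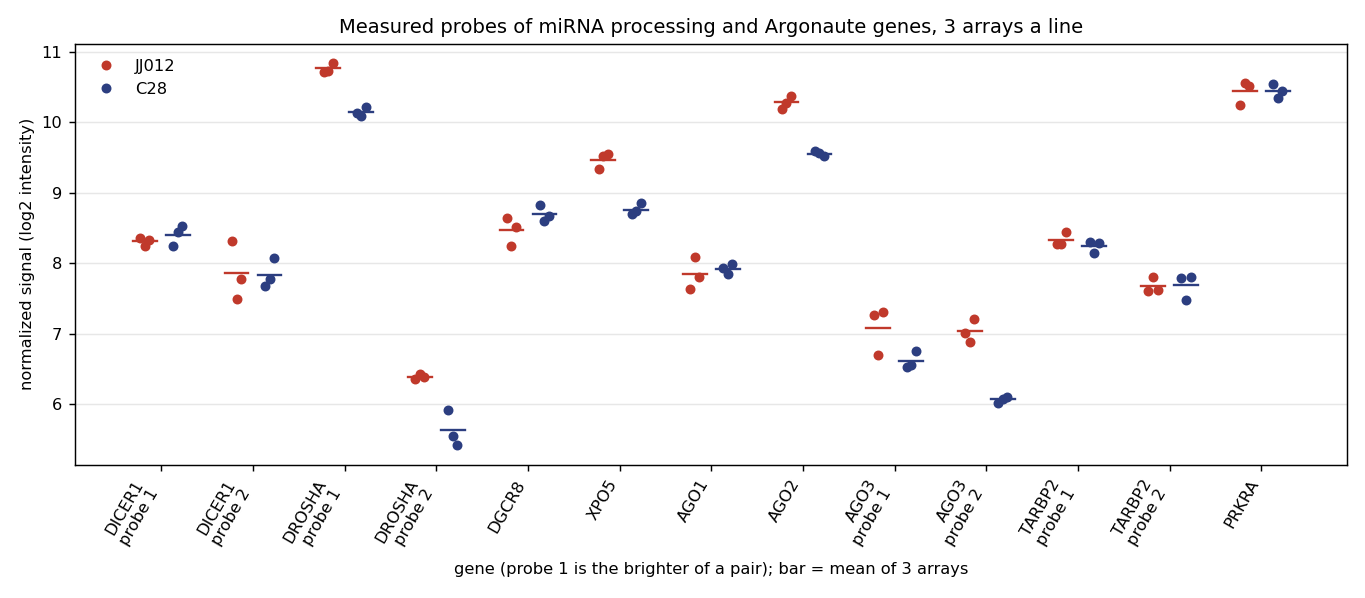
Normalized log2 signal (vertical axis) of each of the 13 measured probes, with 1 point per array, JJ012 in red on the left and C28 in blue on the right of each pair, and a bar at the mean of 3 arrays. The JJ012 points lie above all C28 points for both DROSHA probes, XPO5, AGO2 and the second AGO3 probe, and the points of the lines overlap for the others. Heights of different probes are not comparable.

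DROSHA, the nuclease of the nuclear step, was higher in JJ012. The brighter probe (ILMN_1790410) read a log2 signal of 10.71, 10.73 and 10.84 on JJ012 arrays 1, 2 and 3, against 10.12, 10.08 and 10.21 on C28 arrays 1, 2 and 3. Every JJ012 array lay above every C28 array. The log2 fold change was 0.62 (SE 0.09, adjusted p = 4.77e-04, limma), a fold of 1.54 with a 95% interval of 1.32 to 1.79. The dimmer probe (ILMN_2152095) read 6.35, 6.43 and 6.38 in JJ012, against 5.92, 5.55 and 5.41 in C28, again with no overlap, and its log2 fold change was 0.76 (SE 0.14, adjusted p = 0.00132, limma). This dimmer probe was detected on 2 of 3 C28 arrays and so entered the test through JJ012, where it is high, so it adds no support to the rise. Before any correction its intensities overlapped, at 131.1, 129.2 and 144.9 in JJ012 against 140.0, 108.3 and 109.2 in C28, and without background correction its log2 fold change was 0.39.

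DGCR8, the RNA-binding partner that positions DROSHA on the hairpin, did not rise with it. Its only probe (ILMN_1694223) read a log2 signal of 8.64, 8.24 and 8.51 in JJ012, against 8.83, 8.59 and 8.67 in C28. The lines overlapped, since JJ012 array 1 lay above C28 array 2. The log2 fold change was −0.23 (SE 0.13, adjusted p = 0.141, limma), with a 95% interval of −0.53 to 0.07, so a fall of up to 0.53 on the log2 scale is within the error. With median scaling of the arrays in place of quantile normalization, DGCR8 was lower at −0.46 (adjusted p = 0.0222, limma), a scaling that moved the median of all probes to −0.19 from −0.01. Without JJ012 array 1 the change of DGCR8 was −0.32 (adjusted p = 0.0571, limma).

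The difference between the DROSHA and DGCR8 signals was therefore compared within each array. It was 2.07, 2.49 and 2.33 log2 units in JJ012, against 1.29, 1.49 and 1.54 in C28, with no overlap. Only the gap between the lines can be read from it, since the 2 probes have their own brightness. That gap was 0.85 log2 units (two-sided exact permutation p = 0.1, the smallest that 3 against 3 arrays allow, and 0.2 after Benjamini-Hochberg adjustment over the 6 partner pairs compared). This permutation test thus cannot pass a threshold of 0.05 with 3 against 3 arrays, so it does not decide whether the gap differs.

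Microprocessor, the complex of both proteins, is also known to cut hairpins inside the DGCR8 transcript itself, and the hairpins annotated there give miR-3618 and miR-1306. DICER1 likewise holds a miRNA gene in its own transcript unit, that of miR-3173. These mature sequences are shown because they lie within 2 of the genes whose mRNA did not pass the test. They are from RefSeq on GRCh38.p14, at chr22:20085797-20085818 (+) for miR-3618, chr22:20086072-20086093 (+) and chr22:20086112-20086129 (+) for the arms of miR-1306, and chr14:95137961-95137982 (−) and chr14:95137923-95137944 (−) for those of miR-3173. Capitals mark the seed, bases 2 to 8, and no seed is shared among them.
hsa-miR-3618: uGUCUACAuuaaugaaaagagc
hsa-miR-1306-5p: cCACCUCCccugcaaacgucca
hsa-miR-1306-3p: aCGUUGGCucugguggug
hsa-miR-3173-5p: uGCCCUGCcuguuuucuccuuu
hsa-miR-3173-3p: aAAGGAGGaaauaggcaggcca
The array table had 0 probes annotated to these miRNA genes, so their transcripts are not analysed here.

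XPO5, whose product exports the precursor hairpin, was higher in JJ012. Its probe (ILMN_1759495) read a log2 signal of 9.34, 9.51 and 9.55 in JJ012, against 8.69, 8.73 and 8.85 in C28. All JJ012 arrays lay above all C28 arrays. The log2 fold change was 0.71 (SE 0.10, adjusted p = 3.70e-04, limma), a fold of 1.64 with a 95% interval of 1.39 to 1.93, and it was 0.77 without JJ012 array 1. RAN, the GTPase that XPO5 needs to load its cargo, moved the other way, at 13.37, 13.31 and 13.35 in JJ012 against 13.71, 13.70 and 13.79 in C28, giving −0.39 on the log2 scale (SE 0.09, adjusted p = 0.00476, limma). Within arrays, XPO5 minus RAN was −3.88 ± 0.14 in JJ012 and −4.98 ± 0.04 in C28 (log2, SD, n = 3 each), a gap of 1.10 with no overlap (two-sided exact permutation p = 0.1, adjusted 0.2).

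DICER1, the cytoplasmic nuclease, did not differ beyond the error. The brighter of its 2 measured probes (ILMN_1772692) read a log2 signal of 8.35, 8.25 and 8.33 in JJ012, against 8.24, 8.44 and 8.53 in C28, with overlap. Its log2 fold change was −0.09 (SE 0.11, adjusted p = 0.469, limma), with a 95% interval of −0.34 to 0.16, or a fold of 0.791 to 1.11. The other measured probe (ILMN_2349831) read 8.31, 7.49 and 7.77 in JJ012, against 7.67, 7.77 and 8.07 in C28, and JJ012 array 1 was its highest array. That probe gave 0.02 (SE 0.21, adjusted p = 0.927, limma). Both probes thus allow a change of well under 2-fold in either direction. Under median scaling the brighter probe was lower, at −0.32 (adjusted p = 0.0357, limma), and relative to the median of all probes it stood at −0.13 under that scaling and −0.08 under the one used. Another pair of DICER1 probes (ILMN_1706100 and ILMN_1686725) was detected on 0 of 6 arrays at this threshold.

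TARBP2 and PRKRA, double-stranded RNA-binding proteins that sit with DICER1, did not pass the test either. TARBP2 read a log2 signal of 8.27, 8.28 and 8.43 in JJ012, against 8.30, 8.14 and 8.28 in C28, by its brighter probe (ILMN_1729767). Only JJ012 array 3 lay above the C28 range, and the log2 fold change was 0.09 (SE 0.10, adjusted p = 0.459, limma), with a 95% interval of −0.14 to 0.32. Its second probe (ILMN_2310253), annotated to another transcript, read 7.60, 7.80 and 7.62 in JJ012, against 7.79, 7.47 and 7.81 in C28, giving −0.01 on the log2 scale (adjusted p = 0.922, limma).

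PRKRA (ILMN_1758474) read a log2 signal of 10.25, 10.56 and 10.51 in JJ012, against 10.54, 10.35 and 10.44 in C28. The lines overlapped fully and their means were both 10.44. The 95% interval of its log2 fold change was −0.27 to 0.27 (adjusted p = 0.985, limma), and 99.6% of measured genes had a larger change in size. Within arrays, DICER1 minus TARBP2 changed by −0.18 log2 units and DICER1 minus PRKRA by −0.09, both with overlap (two-sided exact permutation p = 0.3 and 0.9, adjusted 0.36 and 0.9).

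AGO2, the Argonaute that can slice a paired mRNA, was the member with the largest log2 fold change by the probes used for each gene. Its probe (ILMN_1695719) read a log2 signal of 10.18, 10.28 and 10.37 in JJ012, against 9.58, 9.56 and 9.52 in C28. Each JJ012 array was above each C28 array, and the C28 arrays spread by an SD of only 0.03. The log2 fold change was 0.72 (SE 0.09, adjusted p = 2.12e-04, limma), a fold of 1.65 with a 95% interval of 1.42 to 1.92. Among all measured genes 43.9% had a larger change in size.

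AGO1, a non-slicing Argonaute, did not share that change. It (ILMN_1671326) read a log2 signal of 7.63, 8.08 and 7.80 in JJ012, against 7.93, 7.84 and 7.99 in C28, with JJ012 arrays on both sides of the C28 range. The log2 fold change was −0.08 (SE 0.13, adjusted p = 0.585, limma), with a 95% interval of −0.39 to 0.22. AGO2 minus AGO1 within arrays was 2.44 ± 0.21 in JJ012 and 1.63 ± 0.09 in C28 (log2, SD, n = 3 each), a gap of 0.81 with no overlap (two-sided exact permutation p = 0.1, adjusted 0.2).

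AGO3, which lies beside AGO1 in the genome, was higher in JJ012, with probes that differ in how firmly they show it. The brighter probe (ILMN_1809751), used for the gene, read a log2 signal of 7.26, 6.69 and 7.30 in JJ012, against 6.52, 6.55 and 6.76 in C28. JJ012 array 2 lay within the C28 range, and the log2 fold change was 0.47 (SE 0.17, adjusted p = 0.0378, limma). This call did not survive leaving out JJ012 array 1, JJ012 array 3, C28 array 1 or C28 array 2, with log2 fold changes of 0.36 to 0.44 and adjusted p of 0.0960 to 0.127 (limma). It was also lost under median scaling, where the log2 fold change was 0.25 (adjusted p = 0.235, limma). The second probe (ILMN_1761049), annotated to another AGO3 transcript, read 7.0, 6.88 and 7.21 in JJ012, against 6.01, 6.08 and 6.11 in C28. Its lines did not overlap, and its log2 fold change of 0.97 (SE 0.11, adjusted p = 1.09e-04, limma) was the largest of the 13 probes, falling to 0.58 without background correction. AGO3 minus AGO1 changed by 0.56 log2 units with overlap (two-sided exact permutation p = 0.3, adjusted 0.36).

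AGO4, the remaining Argonaute, had 1 probe (ILMN_1706304), detected on 0 of 6 arrays at this threshold. Its normalized log2 signal was 5.42, 5.38 and 4.84 in JJ012, against 5.09, 5.10 and 4.90 in C28. These values overlap and are not well above background, so no fold is given.

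Counted by probe, 6 of 13 were higher and 0 of 13 lower in JJ012 at an adjusted p under 0.05 (limma), beside 34.8% and 35.4% of all measured probes, and 5 of 13 had every JJ012 array above every C28 array, beside 36.8%. Both counts include the dimmer DROSHA probe. Without JJ012 array 1, the log2 fold changes of DROSHA, XPO5 and AGO2 were 0.65, 0.77 and 0.77. In these bulk RNA samples, fewer cells with a transcript and less of it per cell cannot be told apart.

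**Figure D2:**
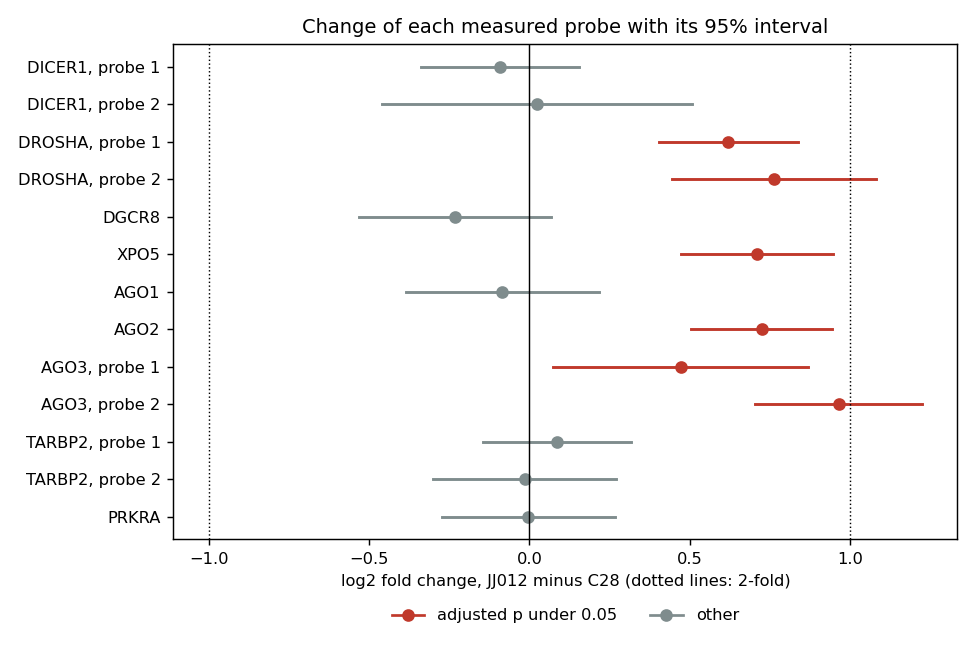
Log2 fold change of JJ012 minus C28 (horizontal axis) for each measured probe, with its 95% interval from limma as a line. The 6 red probes, of DROSHA, XPO5, AGO2 and AGO3, passed an adjusted p of 0.05, and none of their points lies beyond the dotted 2-fold lines. The grey intervals all cross 0.

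The promoters of DROSHA, XPO5 and AGO3 are shown because these are 3 of the 4 genes that were higher in JJ012, the other being AGO2. Each runs from 250 bases before to 50 after the gene's start and was read from RefSeq on GRCh38.p14, at chr5:31532044-31532343 (−), chr6:43575989-43576288 (−) and chr1:35930855-35931154 (+). Capitals mark GGGCGG or its reverse complement, the GC box known to bind SP1-type factors.
DROSHA promoter: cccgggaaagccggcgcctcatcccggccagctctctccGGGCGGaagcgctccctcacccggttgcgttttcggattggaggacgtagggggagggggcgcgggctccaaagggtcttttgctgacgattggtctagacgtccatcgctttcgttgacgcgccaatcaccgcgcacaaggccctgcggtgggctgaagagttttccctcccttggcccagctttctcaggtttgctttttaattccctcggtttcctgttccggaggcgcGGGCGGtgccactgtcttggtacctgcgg
XPO5 promoter: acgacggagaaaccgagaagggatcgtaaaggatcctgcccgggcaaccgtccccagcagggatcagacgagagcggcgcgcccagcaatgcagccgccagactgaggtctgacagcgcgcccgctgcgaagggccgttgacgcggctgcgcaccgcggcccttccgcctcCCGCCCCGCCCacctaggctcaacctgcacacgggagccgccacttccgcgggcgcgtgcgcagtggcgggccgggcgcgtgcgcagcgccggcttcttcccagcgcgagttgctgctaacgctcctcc
AGO3 promoter: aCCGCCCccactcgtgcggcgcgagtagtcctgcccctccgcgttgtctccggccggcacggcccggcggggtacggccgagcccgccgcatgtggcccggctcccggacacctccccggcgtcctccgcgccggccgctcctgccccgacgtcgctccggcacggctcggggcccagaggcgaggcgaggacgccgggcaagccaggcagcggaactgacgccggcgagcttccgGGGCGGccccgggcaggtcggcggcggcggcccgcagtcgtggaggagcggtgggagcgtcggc
Each of these windows held 2 GC boxes, and those of XPO5 overlap by 1 base. Among the 17 promoters of the 9 members found in the table, 13 had a GC box on either strand, in 8 genes, while 45% of all 35116 promoters had one. DICER1, DGCR8, TARBP2, PRKRA and AGO1, which did not pass the test, had it as well. CCAAT was found in 8 of the 17, in 6 genes, and in 34.6% of all promoters, and CCGGAAG, an ETS-type motif, in 1 of the 17, of AGO3, and in 10.3% of all. The E-box CACGTG (7.26% of all promoters), the E2F-type octamers TTTGGCGC, TTTCCCGC, TTTCGCGC and TTTGCCGC (3.31%) and the NRF1-type motif (1.24%) were found in 0 of the member promoters. A match is a description of letters in a window and not of binding.

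The other proteins of the pathway were followed through 81 further genes, of which 70 were measured. Of these 20 were higher and 25 lower in JJ012 at an adjusted p under 0.05 (limma), beside 34.1% and 37.8% of all measured genes. The other 25 did not pass, and the median log2 fold change was −0.11. At 2-fold, 3 were higher and 7 lower, beside 13.7% and 17.6% of all genes. Genes undetected in 1 line entered these counts with their fitted value.

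Around Microprocessor, 14 cofactors were measured, and 6 were higher, 2 lower and 6 not past the test, beside 34.1% of all genes higher and 37.8% lower. Their median log2 fold change was 0.23, with none at 2-fold by the brightest probe. The 3 measured probes of NCBP2 ran from 0.35, by the brightest, to 1.47. By the brightest probe the ends of the list were METTL3 and DDX17, named, like NCBP2, after their values were seen. METTL3, an RNA methyltransferase whose mark on primary transcripts aids their recognition by DGCR8, stood at 0.97 (SE 0.10, adjusted p = 5.66e-05, limma). DDX17, a helicase of the DROSHA complex, stood at −0.96 (SE 0.10, adjusted p = 6.37e-05, limma). Of 6 nuclear export genes, 2 were higher and 3 lower, beside the same shares of all genes, with none at 2-fold by the brightest probe. They ran from RANBP1, a RAN cofactor, at −0.92 to RCC1, the RAN exchange factor, at 0.81, both also named after their values were seen. The 2 measured probes of RANBP1 ran from −1.16 to −0.92, so its other probe lay past 2-fold. The 3 of RCC1 ran from 0.50 to 0.85.

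Argonaute partners were mixed. Of 18 measured, 3 rose, 6 fell and 9 did not pass, beside 34.1% of all genes higher and 37.8% lower. Their median log2 fold change was −0.24. GEMIN4, a protein of the SMN complex also found with Argonautes, rose to 11.03, 11.35 and 11.29 log2 units in JJ012, against 10.27, 10.15 and 10.13 in C28, or by a log2 change of 1.04 (SE 0.11, adjusted p = 7.70e-05, limma). AJUBA, a LIM protein that binds the silencing complex, fell by 1.33 on the log2 scale (SE 0.18, adjusted p = 2.73e-04, limma). Of the scaffold proteins that Argonautes use to recruit silencing enzymes, TNRC6B fell by 0.53 on the log2 scale and TNRC6A gave 0.12 (adjusted p = 0.00397 and 0.487, limma), again named after their values were seen.

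Among the proteins that carry out silencing, by removing the poly(A) tail and the cap, 12 of 22 measured fell, 4 rose and 6 did not pass, beside 37.8% of all genes lower and 34.1% higher, and the median log2 fold change was −0.29. The 5 that reached 2-fold were all lower, beside 17.6% of all genes. DDX6, the helicase that links deadenylation to decapping, read 6.62, 7.09 and 6.47 log2 units in JJ012, against 8.56, 8.41 and 8.83 in C28, and fell by 1.87 (SE 0.18, adjusted p = 3.74e-05, limma). PAN2 and PAN3, which form 1 deadenylase, fell by 1.48 (SE 0.10) and 1.21 (SE 0.12) on the log2 scale. CNOT1, the scaffold of the CCR4-NOT deadenylase, fell by 1.27 (SE 0.11) by its brightest probe, but its 3 measured probes ran from −1.27 to 0.55. The fifth was EIF4ENIF1, a DDX6 partner that binds the cap protein eIF4E, at −1.10. Under median scaling 1 of the 22 was higher.

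Among 7 measured genes of LIN28, tailing and trimming, 3 rose and 1 fell, beside 34.1% of all genes higher and 37.8% lower. TUT1, a terminal uridylyltransferase, was the one past 2-fold, at 1.10 (SE 0.10, adjusted p = 2.85e-05, limma). Both measured RNA editing genes changed. ADARB1, an adenosine deaminase, fell by 1.62 on the log2 scale (SE 0.11, adjusted p = 5.05e-06, limma) and ADAR rose by 0.26 (SE 0.10, adjusted p = 0.0436, limma). PIWIL2, a germline relative of the Argonautes, was undetected on all C28 arrays and was at least 1.52-fold higher in JJ012 (adjusted p = 7.74e-05, limma), and it was the sole gene measured of 4 PIWI genes. Such a bound sets the mean of the brighter line against the detection floor, or the probe's own signal where that is higher, of the other. A gene given only a bound passed the filter solely through the line where it is high, so its p describes the fit and is no support for the difference.

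**Figure D3:**
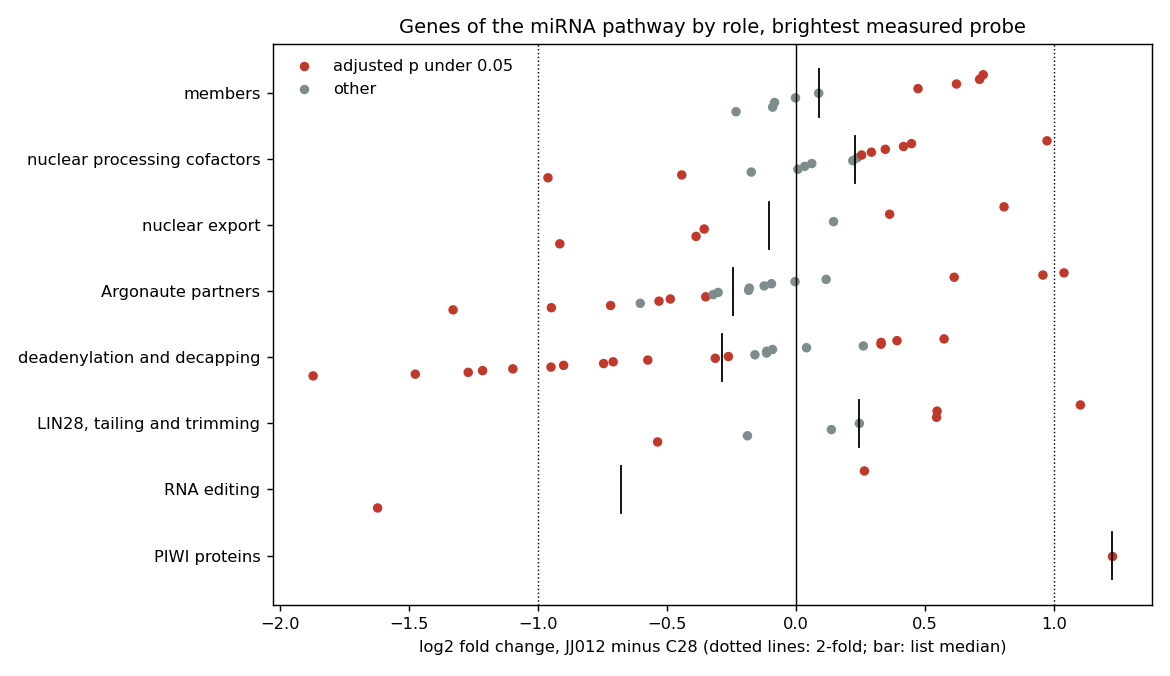
Log2 fold change of JJ012 minus C28 (horizontal axis) by the brightest measured probe of each gene, with 1 row per role and a bar at the row's median. Red points passed an adjusted p of 0.05. The members lie inside the dotted 2-fold lines, and 5 of the 22 deadenylation and decapping genes lie below the lower line. PIWIL2 is drawn at its fitted value.

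The genomic neighbours of the members were compared to see how the members sit among nearby genes. For each member the 5 nearest measured genes on each side were taken in the order of the RefSeq gene table of GRCh38.p14. They are not always the adjoining genes. Over 80 distinct neighbours, 32 were higher and 30 lower in JJ012, near the 34.1% and 37.8% of all measured genes against which the counts below also stand. Neighbours undetected on some or all arrays of a line are counted by their fitted value. They passed the filter solely through the line where they are high, and lend these counts no support.

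DGCR8 lies in the 22q11 interval known for DiGeorge syndrome, and 9 of its 10 measured neighbours were lower in JJ012, with a median log2 fold change of −1.04, beside −0.23 for DGCR8 itself. At 2-fold, 5 were lower by the brightest probe. TBX1, a heart and pharyngeal arch transcription factor, gave −2.41 (SE 0.17), RTL10 −1.82 (SE 0.15), the mitochondrial thioredoxin reductase TXNRD2 −1.52 (SE 0.13), the Nogo receptor RTN4R −2.44 (SE 0.25) and DGCR6L −1.12 (SE 0.10), with adjusted p of 5.46e-05 or less (limma). Under the alternative settings 8 to 10 of the 10 were lower. XPO5 had 6 of 10 neighbours higher and 0 lower, with a median of 0.37, and 4 to 7 higher under the alternative settings. POLR1C, a subunit of RNA polymerases I and III that adjoins XPO5, was the one at 2-fold, at 1.74 (SE 0.11, adjusted p = 4.05e-06, limma). Around TARBP2, 8 of 10 were lower, with a median of −0.51, among them HOXC13 at −1.70 (SE 0.14) and the long non-coding RNA HOTAIR at −1.87 (SE 0.11). TARBP2 itself stood at 0.09, and 6 to 9 of its 10 neighbours were lower under the alternative settings.

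AGO4, AGO1 and AGO3 lie in a row on 1 chromosome, so their values can be read in map order. From the left, the log2 fold changes were 0.27 for KIAA0319L (adjusted p = 0.171), 1.93 for NCDN, 0.25 for PSMB2, 0.65 for C1orf216 and 1.00 for CLSPN (adjusted p = 3.96e-04, limma). AGO1 and AGO3 followed at −0.08 and 0.47. To their right stood ADPRS at 1.14 (adjusted p = 8.11e-04, limma), COL8A2 at −0.75, TRAPPC3 at 0.42, MAP7D1 at 0.12 and THRAP3 at −0.04. Of the named non-Argonaute genes, KIAA0319L, MAP7D1 and THRAP3 did not pass the test. The 95% intervals of CLSPN and ADPRS, on either side of the Argonautes, lay above 0 and that of AGO1 spanned 0, and the difference between these genes was not tested.

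Near the other members, changes ran both ways. Next to PRKRA 7 of 10 neighbours were higher and 2 lower, with the splicing factor CWC22 at 1.05 (SE 0.20) and the adjoining PJVK, undetected in JJ012, at least 1.83-fold lower. By AGO2 5 were higher and 3 lower, with ST3GAL1 at 1.63, KHDRBS3 at 2.16 and TRAPPC9 at −1.42. TRAPPC9 was detected on 1 of 3 JJ012 arrays and entered the test through C28, where it is high. Its value is thus no support for a fall. DICER1 had 3 higher and 5 lower, with IFI27 at 2.44, TCL1A at least 3.19-fold and SERPINA3 at least 1.57-fold higher, PPP4R4 at −1.13 and SCARNA13 at −1.84. The rest of the 5 lower were undetected on all JJ012 arrays. DROSHA had 4 higher and 2 lower. The cadherin genes CDH18 and CDH12 were at least 13.5-fold and 5.10-fold higher and CDH10 at least 1.81-fold lower, but 100, 83 and 55 genes of any kind lie between them and DROSHA.

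**Figure D4:**
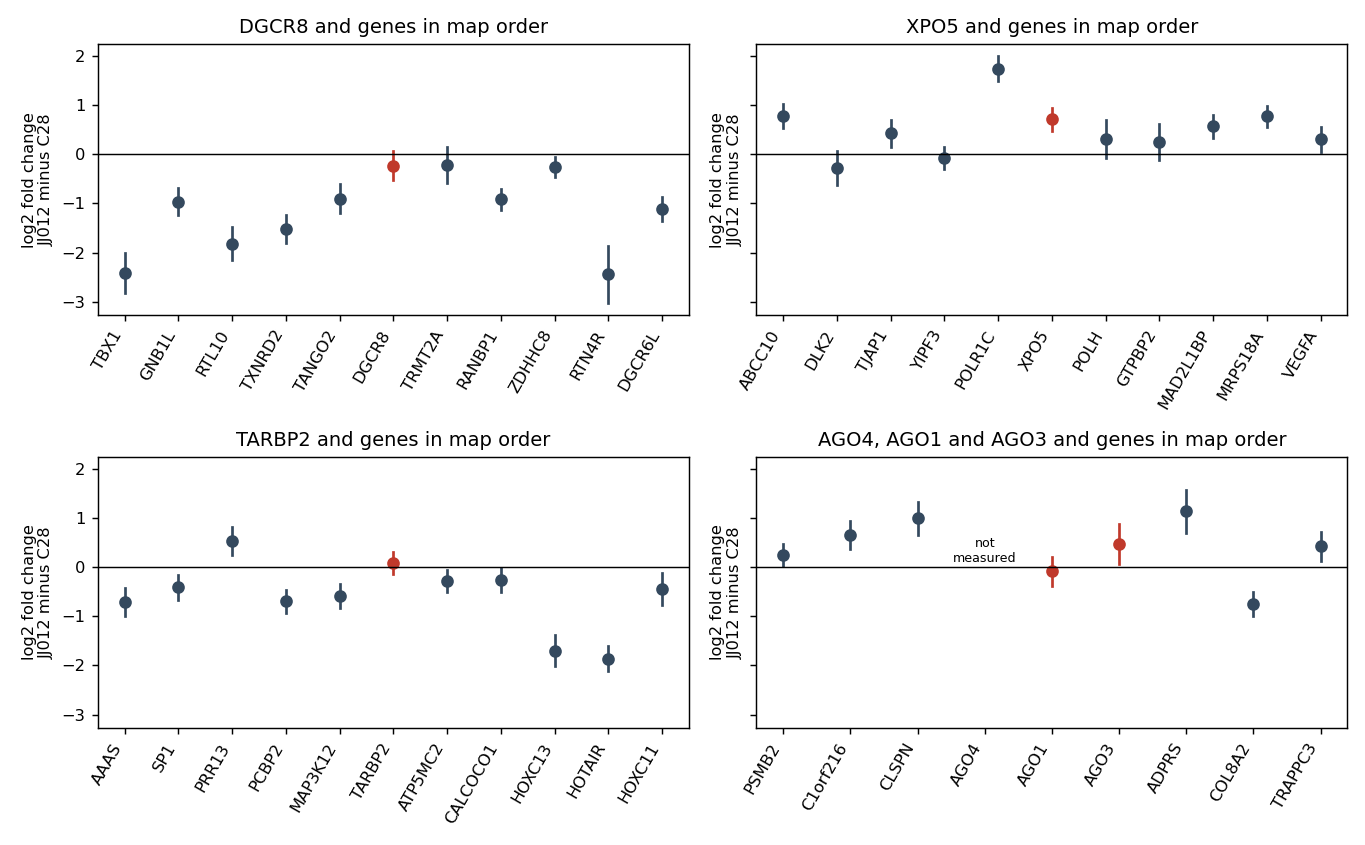
Log2 fold change of JJ012 minus C28 (vertical axis) of measured genes in map order around DGCR8, XPO5, TARBP2 and the row of AGO4, AGO1 and AGO3, with 95% intervals as lines and members in red. The genes around DGCR8 lie below 0 and most of those around XPO5 above it, and AGO1 lies near 0 between CLSPN and ADPRS. Distances are not drawn to scale.

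The array also carried 561 probes annotated to miRNA genes, the substrates of this machinery. What RNA such a probe reads, a primary transcript, a precursor or a host gene, is not stated in the sources used here. Only 4.46% of them were measured, against 41.0% of all probes. Of these 25 measured probes 7 were higher and 4 lower in JJ012 (limma), beside 34.8% and 35.4% of all measured probes. MIR221 was undetected in C28, reading 7.57, 6.49 and 7.24 log2 units in JJ012 against 4.72, 5.25 and 5.12 in C28, and was at least 3.07-fold higher (fitted, adjusted p = 1.93e-04, limma). MIR639, likewise undetected in C28, was at least 1.88-fold higher. MIR302C was undetected in JJ012, at 4.89, 4.76 and 5.04 log2 units in JJ012 against 6.82, 6.73 and 6.60 in C28, and was at least 2.05-fold lower (fitted, adjusted p = 4.00e-06, limma). These 3 passed the filter solely through the line where they are high, and their p is no support for the difference. The same holds for MIR1909, lower and undetected in JJ012, and MIR2116, higher and detected on 2 of 3 C28 arrays. Both are in the counts above. Mature sequences of MIR221 and MIR302C are shown because these probes had the largest bounds, from RefSeq on GRCh38.p14 at chrX:45746180-45746202 (−), chr4:112648366-112648388 (−) and chr4:112648402-112648423 (−), with the seed in capitals. Their seeds differ from each other.
hsa-miR-221-3p: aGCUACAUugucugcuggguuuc
hsa-miR-302c-3p: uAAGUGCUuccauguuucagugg
hsa-miR-302c-5p: uUUAACAUggggguaccugcug
No level of a mature miRNA can be taken from these probes.

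The changes of DROSHA, XPO5 and AGO2 and that of the second AGO3 probe kept their direction and an adjusted p under 0.05 (limma) in every alternative run on them, of 19 settings for the genes and 17 for that AGO3 probe. DROSHA ran from 0.43 to 0.69, XPO5 from 0.49 to 0.77, AGO2 from 0.53 to 0.79 and the second AGO3 probe from 0.58 to 1.08 on the log2 scale. In each of the first 3 the lowest value came from median scaling. AGO3's brighter probe kept its call in 12 of 19.

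**Figure D5:**
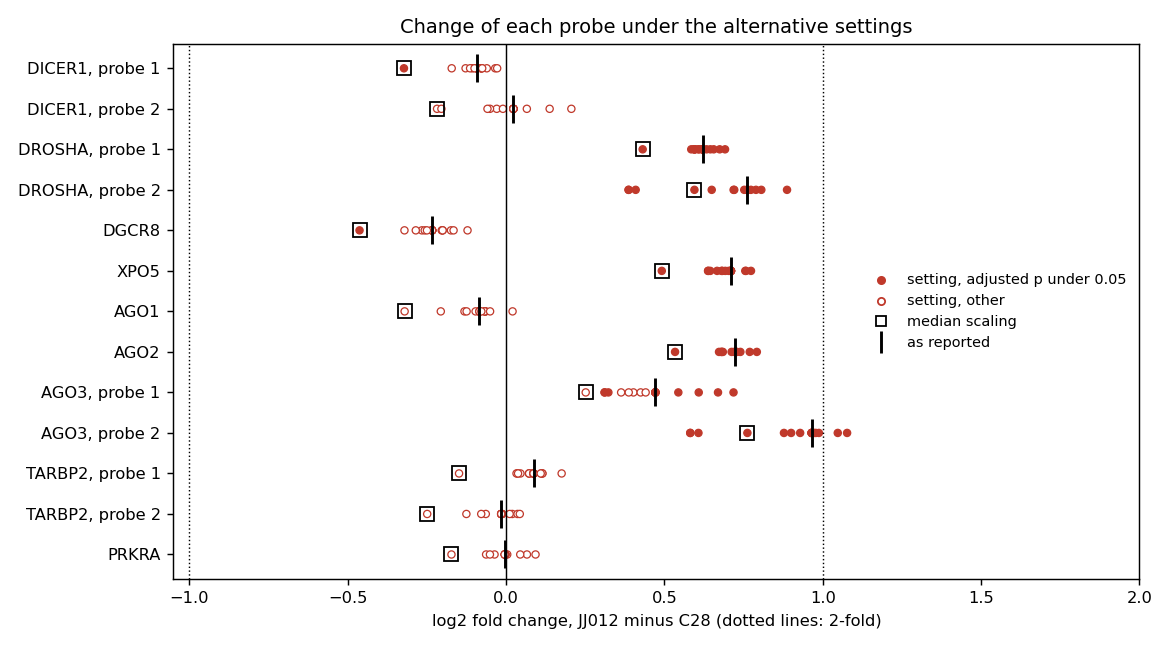
Log2 fold change of JJ012 minus C28 (horizontal axis) of each measured probe under the alternative settings, 1 point per setting, filled where the adjusted p was under 0.05. The short bar is the value reported, and the square marks median scaling, which gave the lowest value for every probe except the dimmer one of DROSHA and the second one of AGO3.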

How the data were processed

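Gene expression was measured on Illumina arrays in JJ012 and C28 cells, 3 arrays each, grouped by the cell line label. The authors deposited a mean intensity per probe, linear and not normalized, and beside it a fraction under a detection heading, which is near 1 for bright probes and was read as 1 minus the detection p. A separate deposited table holds the authors' log2 values, centred on each probe's median over the 6 arrays (correlation 0.998 with log2 intensity differences). Its column medians were −0.003, 0.004 and 0.003 for JJ012 and −0.001, −0.001 and 0 for C28. Its method of normalizing between arrays was not known from the sources used here, and it served as an alternative. Its results nearly repeated those of quantile normalization without background correction, with 3698 probes called at 2-fold in each and AGO2 at 0.68 in each. These alternatives are therefore not separate from each other. The scanner's software was not given in the sources used here. The number of arrays limits the precision.

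The neqc function of limma 3.58.1 (R 4.3.3) corrected the background and made the arrays' quantiles equal (offset 16, negative controls inferred from detection values). Probes with a detection value above 0.99 on all 3 arrays of at least 1 line were fitted with lmFit and eBayes, two-sided, with Benjamini-Hochberg adjustment over 19384 probes. Fold changes are log2, JJ012 minus C28. The script was tested on simulated data. Of all probes 30113 had 1 gene symbol, 8 several and 17110 none listed, and 30074 matched RefSeq by identifier. A gene took its brightest measured probe.

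Named were all members, up to 4 genes per other list with the largest change past 2-fold, measured neighbours of the adjoining AGO genes, and other neighbours past 2-fold. RAN, RANBP1, RCC1, METTL3, DDX17, NCBP2, TNRC6A, TNRC6B, EIF4ENIF1, ADAR, MIR1909 and MIR2116 fall outside that rule and were chosen after their values were seen. The same holds for the values of SOX9 and MATN3 and for the named fibroblast and epithelial markers. Members and lists were chosen with earlier results of these data known. Replicate numbers did not pair the lines, since deviations of same-numbered arrays correlated at −0.04, −0.07 and 0.05. Alternatives changed background correction, scaling, filter, probe choice, array weights, variance trend and the replicate block, and left out each array in turn.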

Additional observations from a re-analysis of the deposited data

How the results depend on the processing

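In 19 alternatives, 3 or 4 member genes were higher and no member, counted by gene, reached 2-fold. The second AGO3 probe (ILMN_1761049), not the one used for the gene, passed 2-fold in 2 of 17 settings, at up to 1.08 on the log2 scale. Median scaling made 2 member genes and 2 member probes lower (DICER1 and DGCR8), moved the median of all probes to −0.19, took the share of higher among 2-fold calls to 35.8% from 46.6%, and left 1 other pathway gene higher and 11 lower at 2-fold and 1 deadenylation or decapping gene higher. For AGO3 ILMN_1809751, adjusted p was 0.0720 under cyclic loess and 0.0780 with no filter (limma). Other pathway genes higher at 2-fold numbered 1 with normexp without negative controls, 0 with no background correction and 0 by the authors' values, and 2 to 5 when 1 array was left out (5 without JJ012 array 3). Deadenylation and decapping genes that were higher numbered 2 to 4 in those leave-outs (2 without C28 array 3). Of all probes 5771 were called at 2-fold, against 3698 with no background correction, 3698 by the authors' values and 3133 when detection on all 6 arrays was required, where fewer probes were tested. The cause of the other shifts was not tested. The replicate block gave 4 member genes higher, 0 lower and 13082 probes differing, against 13609 without it, and the arrays share only a number. Neighbour and deadenylation counts under alternatives were added after seeing the data. No called member changed sign. Signs turned for 5 probes that did not pass the test, over −0.22 to 0.21 for DICER1 ILMN_2349831, −0.15 to 0.18 and −0.25 to 0.04 for the TARBP2 probes, −0.32 to 0.02 for AGO1 and −0.17 to 0.09 for PRKRA (log2), and the share of higher 2-fold calls was 52.1% when detection on all 6 arrays was required. Dim probes are the limit, since AGO4 and 2 of 4 DICER1 probes stayed below detection.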
